A study of Mus musculus with 24 samples.

Results

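Malat1, Neat1 and Kcnq1ot1 are long non-coding RNAs that normally stay in the nucleus. They were chosen by gene name, as 3 of the 33967 gene names that all 5 tables of murine cell surface RNA listed and 3 of the 55335 genes in the tables of blood cell total RNA. Surface RNA had been profiled with AMOUR, in which fixed cells on lectin-coated beads were annealed with a random primer that carried a T7 promoter, so that T7 RNA polymerase copied exposed RNA in place. The 15 surface libraries came from wild-type C57BL/6 mice, 3 each from B cells, T cells and natural killer (NK) cells of the spleen and from bone marrow monocytes and bone marrow cells enriched for hematopoietic stem and progenitors (HSPCs), all isolated with magnetic kits. The T cell kit selected CD8+ cells, and the HSPC kit only removed cells that carried lineage markers. A further 9 libraries held whole-cell RNA of mononuclear cells from the blood (PBMCs) of wild-type mice, 3 each in groups labelled ct, WT and Y, which the labels do not explain. The study calls the surface libraries of a cell type biological replicates, but no label says that libraries of a group, on the surface or in PBMCs, came from separate animals. The p-values measure the spread between these libraries, which in PBMCs may be technical.

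Malat1 collects in nuclear speckles, the bodies where splicing factors are stored. Its 3′ end is cut by RNase P, which releases a small tRNA-like RNA, mascRNA, to the cytoplasm, and the new end is protected by a triple helix. Neat1 is the scaffold of paraspeckles, which need its long isoform, whereas the short isoform alone does not build them. Kcnq1ot1 is made from the paternal allele only and silences imprinted genes around it. In immune cells Neat1 is known to respond to infection and stress signals.

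In the GRCm38 build, Malat1 lies on the minus strand at chr19:5795690-5802672. Neat1 lies on the same strand at chr19:5824708-5845478, 22035 bases upstream of it. Kcnq1ot1 lies at chr7:143203458-143296549, antisense to Kcnq1 and inside it, as a single exon of 93092 bases. Unspliced Malat1-201 is 6983 bases long, while Malat1-202 (556 bases) and Malat1-204 (656 bases) each join an exon from the 3′ part of the gene to a short last exon that lies beyond mascRNA. The 58 bases of mascRNA fall in Malat1-201 at positions 6692 to 6749 and in no exon of Malat1-202 or Malat1-204. Neat1-201 is the unspliced long isoform of 20771 bases, and Neat1-202 is a spliced isoform of 3004 bases near the 5′ end of the gene. The sequences below, taken from the GENCODE transcripts of that build and the RefSeq position of mascRNA, are shown because the isoforms differed between cell types. In the Malat1 end (chr19:5795924-5796101, minus strand), capitals mark mascRNA, and the A-rich tract of the triple helix stands just before it. In the junctions, lower case marks the last 30 bases of exon 1 and capitals the first 30 bases of exon 2.
Malat1 end with mascRNA: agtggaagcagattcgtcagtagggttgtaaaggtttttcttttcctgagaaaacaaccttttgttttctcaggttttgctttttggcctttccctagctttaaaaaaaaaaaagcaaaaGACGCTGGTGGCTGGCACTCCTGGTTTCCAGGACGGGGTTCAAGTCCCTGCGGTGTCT
Malat1-202 junction: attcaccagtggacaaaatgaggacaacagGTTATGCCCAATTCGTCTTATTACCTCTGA
Malat1-204 junction: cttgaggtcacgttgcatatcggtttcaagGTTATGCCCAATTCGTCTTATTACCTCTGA
Neat1-202 junction: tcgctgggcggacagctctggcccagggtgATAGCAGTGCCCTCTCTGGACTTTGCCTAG

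Surface levels are summed TPM, transcript abundances scaled to the same total in every library, which compare genes per length but keep no depth, so that the depth of the surface libraries is unknown. The tables of B, T, NK cells and HSPCs list the same 102168 transcripts, all above 0 in at least 1 of the 12 libraries. The monocyte table lists 149488 transcripts from a later annotation, of which 79567 are at 0 in all 3 libraries. It lists 32 transcripts of these genes, against 9 in the other tables, and monocytes alone were sequenced on another instrument. Cell type, instrument and annotation therefore cannot be told apart for monocytes. In HSPC libraries, Gm55936, Gm55094 and Gm55118, which share their values, took between 74.3% and 83.3% of all TPM, against 9.72% to 31.5% in the other libraries. Markers of each labelled type were highest in their own libraries by summed TPM, except that the 5 HSPC markers summed to 307 ± 72.6 (SD, n = 3) in monocytes and 90.0 ± 32.5 in HSPCs. Rescaled without rRNA and the 3 same-valued transcripts, that order turned to 799 ± 155 in HSPCs and 618 ± 154 in monocytes, and over protein_coding and lncRNA transcripts to 5141 ± 709.8 and 1619 ± 438. The 5 neutrophil markers summed to 1410 ± 49.6 TPM in monocytes and to at most 51.4 in any other library. Over protein_coding and lncRNA transcripts they summed to 7555 ± 471 in monocytes, 1577 ± 852 in HSPCs and 1255 ± 536 in NK cells. None of the listed T cell, NK cell or neutrophil sets was at 0 as a whole in monocytes, where Cd3g alone among the T cell markers was at 0 in all 3 libraries. The part of these cells in the results was not tested.

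Malat1 was measured in every surface library. The paper counts AMOUR transcripts as hits only above 50 TPM and states that no current method fully excludes intracellular RNA. Malat1-201 passed that cut in every monocyte library (90.3 TPM or more). No Malat1 transcript did in HSPCs (at most 16.2 TPM), and the other types had libraries on both sides. Neat1 outside monocytes (at most 10.1 TPM) and Kcnq1ot1 everywhere (at most 2.29 TPM) were below it. The part of intracellular RNA was not tested. B cell libraries held 92.3, 85.1 and 55.7 TPM, and T cell libraries 22.3, 73.8 and 37.4 TPM. NK cells gave 44.0, 77.1 and 77.1 TPM, and HSPCs gave 20.2, 29.8 and 24.3 TPM. Monocytes stood above all other libraries in TPM as deposited, at 229, 242 and 197, an order that turned on another scale given below. The order of the means was monocytes (222 ± 23.1, SD, n = 3), B cells (77.7 ± 19.4), NK cells (66.1 ± 19.1), T cells (44.5 ± 26.5) and HSPCs (24.8 ± 4.79). B cells, NK cells and T cells overlapped, as did T cells and HSPCs, and only monocytes were separated from their neighbour in this order.

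Neat1 was far lower than Malat1 on lymphocytes and closer to it on monocytes. Its level was 2.49, 3.00 and 1.83 TPM in B cells and 1.10, 2.38 and 1.94 TPM in T cells. NK cells gave 4.30, 9.82 and 10.1 TPM, and HSPCs gave 3.21, 5.43 and 4.50 TPM. The 3 monocyte libraries held 105, 93.5 and 84.3 TPM. The order of means was monocytes (94.3 ± 10.4, SD, n = 3), NK cells (8.09 ± 3.28), HSPCs (4.38 ± 1.11), B cells (2.44 ± 0.585), T cells (1.81 ± 0.647). NK cells overlapped with HSPCs and B cells with T cells, while all HSPC libraries lay above all B and T cell libraries.

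Kcnq1ot1 was below 0.4 TPM outside monocytes. B cells gave 0.132, 0.131 and 0.0738 TPM, and T cells 0.0634, 0.173 and 0.128 TPM. In NK cells it measured 0.140, 0.248 and 0.374 TPM, and in HSPCs 0.164, 0.239 and 0.195 TPM. Monocytes gave 1.40, 2.29 and 1.37 TPM. The monocyte libraries lay above the 12 others as deposited but not on every scale below. All B cell libraries lay below all NK cell and HSPC libraries, and T cells overlapped with each of these types.

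**Figure D1:**
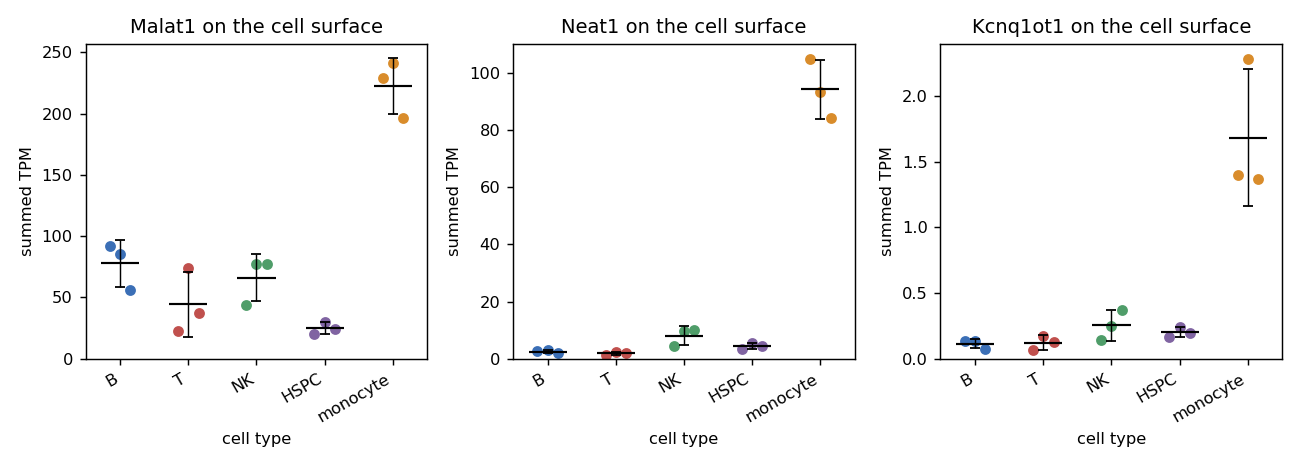
Summed TPM of Malat1, Neat1 and Kcnq1ot1 (y axes, linear) in each surface library by cell type (x axes). Points are libraries, horizontal lines are means and bars are SD (n = 3). Monocytes lie above every other library for each gene, at means of 222, 94.3 and 1.68 TPM. This held on each rescaling for Neat1, but not over protein_coding and lncRNA transcripts for Malat1 and Kcnq1ot1.

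Among the 10 pairs of cell types, limma on log2(TPM + 1) with Benjamini-Hochberg adjustment over 12930 genes called Malat1 in 6 pairs, Neat1 in 7 and Kcnq1ot1 in 4. In TPM as deposited, monocytes were higher than each of the other types for all 3 genes, though rescaling turned this for Malat1 and Kcnq1ot1. Being called higher in monocytes was by itself no mark of these RNAs. Of all genes tested, 87.7%, 88.5%, 86.8% and 91.4% were called higher in monocytes than in B cells, T cells, NK cells and HSPCs. The median gene was higher in monocytes by 2.04, 2.44, 2.01 and 2.32 on the log2 scale in the same order. Malat1 differed by 1.53, 2.45, 1.78 and 3.13 (SE 0.39, adjusted p between 2.2e-06 and 0.0019), which is below the median gene against B and NK cells, level with it against T cells and above it against HSPCs. Neat1 differed by 4.80, 5.11, 3.46 and 4.16 (SE 0.30, adjusted p between 5.5e-10 and 4.6e-08), above the median gene in each comparison. Kcnq1ot1 passed the filter on low values only through monocytes, so that its monocyte difference (1.25, 1.24, 1.09 and 1.15, SE 0.12) carries no weight.

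Between the other cell types, Malat1 was lower in HSPCs than in B cells by a log2 difference of -1.59 ± 0.39 (SE, limma adjusted p = 0.0067), where 23.4% of genes were called lower. This difference kept its sign under each rescaling, but without rRNA and the 3 same-valued transcripts it was -0.37 and the call was lost (limma adjusted p = 0.46). In this pair all 5 neutrophil, all 5 platelet and 4 of 5 monocyte markers were called higher in HSPCs as deposited, and their part was not tested. Malat1 was also lower in HSPCs than in NK cells (-1.35 ± 0.39, adjusted p = 0.028, 17% of genes called lower). The latter call was lost without NK replicate 2 or 3 or without HSPC replicate 1 or 3 (adjusted p between 0.083 and 0.118). In this pair all 5 B cell and all 6 NK cell markers were called lower in HSPCs as deposited. All 5 platelet markers and 1 of 5 neutrophil markers were called higher there, and 1 of 5 monocyte markers lower. Their part was not tested. Neat1 was higher in NK cells than in B cells (1.34 ± 0.30, limma adjusted p = 0.0059), where 11% of genes were called higher. Against T cells it was higher in NK cells by 1.64 ± 0.30 (limma adjusted p = 0.0014, 35.9% of genes called higher). Markers of several other cell types moved with both NK differences. Of these, 4 of 5 neutrophil and 3 of 5 monocyte markers, 4 of 5 platelet markers and 4 of 5 HSPC markers were called higher in NK cells than in B cells and than in T cells, and all 5 B cell markers were higher in NK cells than in T cells. The neutrophil markers summed to 23.6 to 32.9 TPM in NK cells and to at most 0.371 in B and T cells, and S100a8, a calcium-binding protein gene of neutrophils, was higher in NK cells by 3.14 and 3.16 (limma adjusted p = 2.5e-05 and 4.1e-05). Their part in the Neat1 difference was not tested. HSPCs held more Neat1 than T cells did (0.94 ± 0.30, limma adjusted p = 0.034, 15% of genes called higher). That call was lost without T cell replicate 1 or 3 or HSPC replicate 2 or 3 (adjusted p between 0.067 and 0.141). It was also lost with TPM rescaled without rRNA (0.39, limma adjusted p = 0.49), while the difference was 2.90 with the 3 same-valued transcripts removed as well. In this pair all 5 neutrophil, all 5 platelet and 2 of 5 monocyte markers were called higher in HSPCs, beside all 5 HSPC markers. With the monocyte libraries left out and genes above 0.1 TPM kept, an alternative chosen after seeing the data, limma called Kcnq1ot1 in 0 of 6 pairs, and 1 pair, NK cells against B cells, had an unadjusted p under 0.05 (limma adjusted p = 0.13). Other scales, with all 15 libraries, did call Kcnq1ot1 between these types. Without rRNA and the same-valued transcripts it was higher in HSPCs than in B, T and NK cells (0.98, 1.11 and 0.69, limma adjusted p = 0.0012, 0.00019 and 0.012). Over protein_coding and lncRNA transcripts it was higher in T cells, NK cells and HSPCs than in B cells (0.96, 1.02 and 1.32, limma adjusted p = 0.018, 0.012 and 0.0016).

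The denominator decided much of this. With rRNA and the 3 same-valued transcripts removed and TPM rescaled, mean Malat1 was 297 ± 70.2 on B, 111 ± 60.1 on T and 199 ± 62.0 on NK cells. It was 225 ± 2.43 on HSPCs and 447 ± 47.1 on monocytes. HSPCs then no longer had the lowest Malat1, and their difference from NK cells turned to 0.23 (limma adjusted p = 0.66). Their difference from T cells was called in both directions, at 1.16 on that scale (limma adjusted p = 0.013), -1.47 without rRNA alone (adjusted p = 0.011) and -1.12 over protein_coding and lncRNA transcripts (adjusted p = 0.00015). Monocytes against B cells lost its call on the scale without rRNA and the same-valued transcripts (0.61, adjusted p = 0.15). T cells against B cells, not called as deposited (-0.92, limma adjusted p = 0.086), was called without rRNA (-1.15, adjusted p = 0.020). It was also called without rRNA and the same-valued transcripts (-1.54, limma adjusted p = 0.0039), but was 0.13 over protein_coding and lncRNA transcripts (adjusted p = 0.65). When TPM were rescaled over protein_coding and lncRNA transcripts only, Malat1 was lowest in monocytes, at 1210 ± 162. HSPCs followed with 1513 ± 133, and NK, B and T cells had 2647 ± 222, 3010 ± 407 and 3347 ± 836. On that scale Malat1 was lower in monocytes than in B, T and NK cells (log2 differences -1.31, -1.45 and -1.13, limma adjusted p between 1e-05 and 0.00017) and was not called against HSPCs (-0.33, adjusted p = 0.17). The same scale put mean Kcnq1ot1 at 9.21 ± 3.18 in monocytes, within the library range of 8.40 to 13.5 over T cells, NK cells and HSPCs, and turned 3 of its 4 monocyte differences below 0.

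Neat1 was highest in monocytes under each of these scales, while the order of the other types changed. It was 189 ± 18.6 in monocytes after removal of rRNA and the same-valued transcripts, against 39.4 ± 3.21 in HSPCs and 24.4 ± 10.4 in NK cells, so that HSPCs then stood above NK cells by their means. T cells had less Neat1 than B cells on that scale (-0.92, limma adjusted p = 0.034) and more over protein_coding and lncRNA transcripts (0.60, adjusted p = 0.012). Over protein_coding and lncRNA transcripts, monocytes had 512 ± 61.4, NK cells 314 ± 50.1, HSPCs 264 ± 3.69, T cells 143 ± 4.03 and B cells 95.8 ± 21.1. All 4 monocyte calls and both NK calls of Neat1 stood under the rescalings, under quantile normalization and in each fit with 1 library left out. The smallest monocyte difference over all alternatives was 0.71, against NK cells (limma adjusted p = 0.0028).

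**Figure D2:**
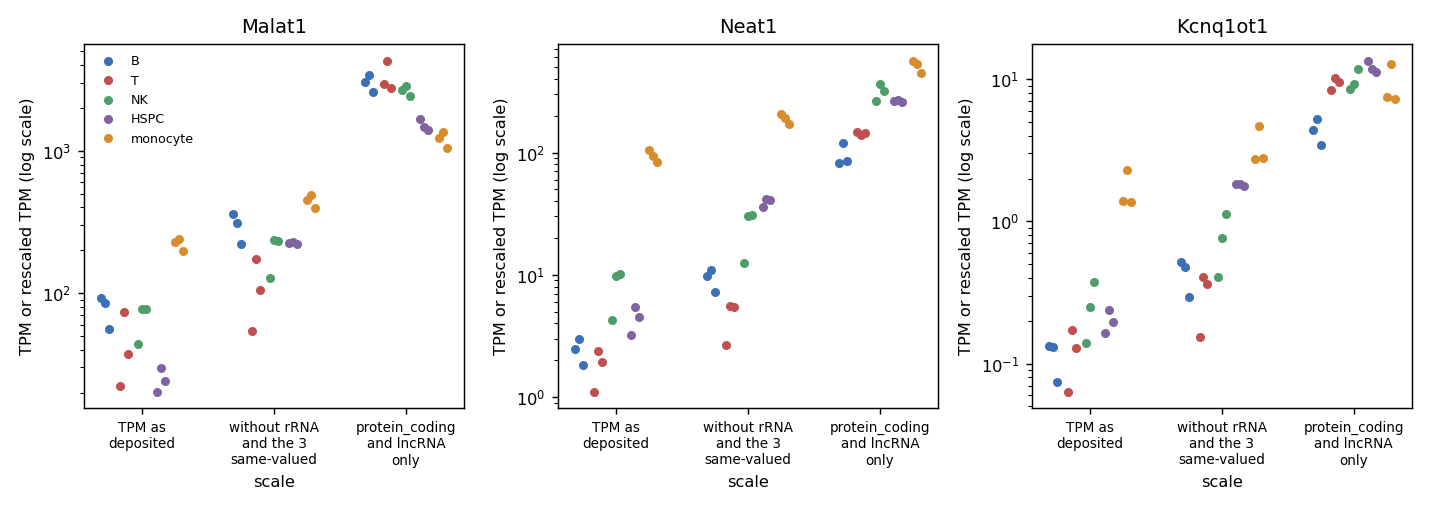
The 3 genes in every surface library (points, coloured by cell type) on 3 scales (x axes), in TPM as deposited or TPM rescaled over the transcripts kept (y axes, log scale). Malat1 in monocytes moves from the top (mean 222 TPM) to the bottom (mean 1210) between the outer scales, while Neat1 in monocytes stays on top throughout.

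The ratio of Malat1 to Neat1 within a library does not depend on that denominator. B cell libraries had 37.0, 28.3 and 30.4, and T cell libraries 20.2, 31.1 and 19.2. NK cells gave 10.2, 7.86 and 7.60, HSPCs 6.30, 5.49 and 5.40, and monocytes 2.18, 2.58 and 2.33. Lymphocytes of the B and T lineage thus had the widest gap between both RNAs, and NK cells, HSPCs and monocytes followed without overlap. The 9 PBMC libraries of total RNA fell between 9.57 and 12.7, below all surface B and T cell libraries and overlapping with NK cells in the NK library at 10.2. Surface TPM came from Kallisto and PBMC TPM from RSEM, with other versions of the gene models, so that sample and pipeline cannot be told apart there. An exact permutation test of the mean log2 ratio, 1 type against the other 12 libraries, called monocytes lower (difference -2.54, two-sided adjusted p = 0.011 over 10 tests, the smallest p this test can give before adjustment being 0.0022). The test takes libraries as exchangeable. It gives its smallest p to the 3 libraries whose mean differs most from that of the others, here the 3 lowest. The monocyte call therefore restates the order above. It called B cells higher by 2.15 (adjusted p = 0.029). T cells, NK cells and HSPCs were not called (adjusted p between 0.14 and 0.90). With only transcripts listed in all 5 tables, the B cell call was lost (2.31, exact permutation adjusted p = 0.066) and monocytes were still called, at a difference of -3.18. The B cell call was also lost without any 1 of the HSPC or monocyte libraries, at differences of 1.99 or more. Without B cell replicate 1, 2 or 3 it was 2.04, 2.23 or 2.18 and not called (exact permutation adjusted p between 0.11 and 0.13). With 1 library of the tested type left out, exact permutation cannot go below p = 0.011 before adjustment, so that a lost call says little there. The monocyte difference was -2.48, -2.60 and -2.53 without monocyte replicates 1, 2 and 3, and the first and last of these were not called. Each cell type was compared with libraries that serve in the other comparisons too.

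Set against Malat1 TPM, Kcnq1ot1 TPM came to 0.144%, 0.154% and 0.133% in B cells, the lowest among the surface libraries. The exact permutation test called B cells lower (log2 difference -1.80, adjusted p = 0.011), again a restatement of that order. The call was lost without any 1 B cell library, where adjusted p was 0.055 and p before adjustment 0.011, the smallest that exact permutation of 2 libraries against 12 can give. Over all fits with 1 library left out and the transcripts listed in all 5 tables, the difference lay between -1.90 and -1.72. T cells ranged from 0.235% to 0.342%, NK cells from 0.317% to 0.485%, monocytes from 0.610% to 0.947%, and the 3 HSPC libraries lay within 0.802% to 0.812%. HSPCs and monocytes were not called (adjusted p = 0.10 and 0.13). PBMC total RNA gave 0.106% to 0.158%, a range that covered the B cell surface values.

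**Figure D3:**
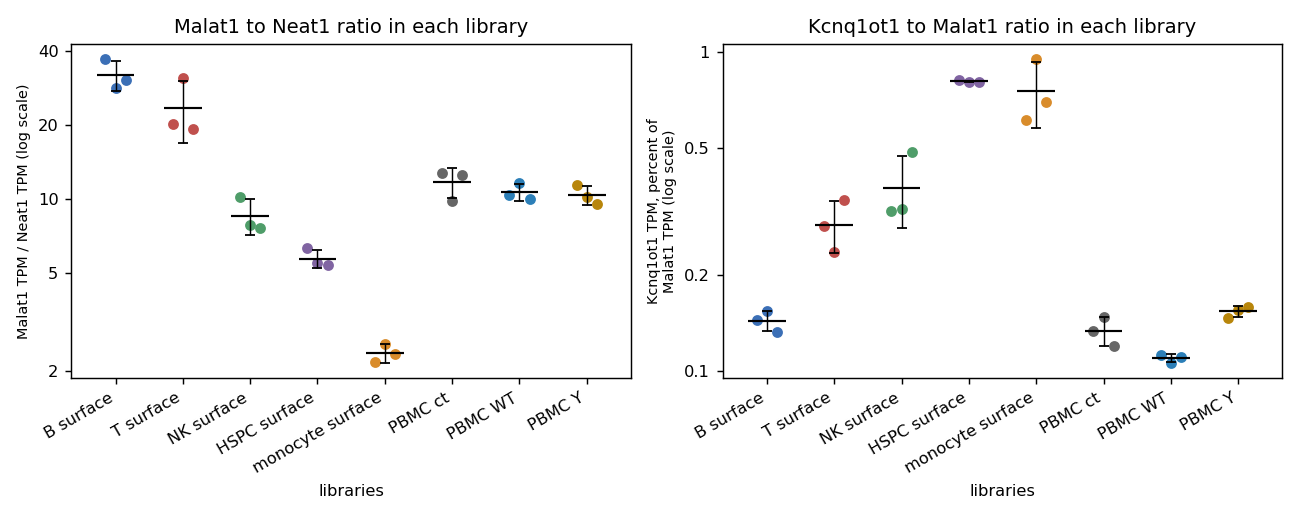
Malat1 TPM divided by Neat1 TPM (left) and Kcnq1ot1 TPM as a percent of Malat1 TPM (right) in each surface and PBMC library (points; y axes on a log scale), with means and SD (n = 3). Malat1 to Neat1 falls from a mean of 31.9 on B cells to 2.37 on monocytes, and PBMC groups lie at 10.4 to 11.7.

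The transcripts behind these sums differed between cell types as well. In B cells the spliced Malat1-204, whose junction is shown above, held 60.2, 57.2 and 40.7 TPM, and unspliced Malat1-201 held 32.0, 27.9 and 14.95 TPM. Malat1-204 was thus 68.5% ± 4.07 of the gene's TPM in B cells and 56.5% ± 3.66 in HSPCs. In T and NK cells Malat1-201 led, with 73.1% ± 6.58 and 74.6% ± 3.46 of the gene. Malat1-202 was listed at 0 in all B cell, HSPC and monocyte libraries. It measured 6.83, 22.2 and 3.99 TPM in T cells and 3.55, 7.77 and 7.15 TPM in NK cells, so that T and NK libraries did not overlap with the others. In monocytes Malat1-201 held 42.5% ± 3.54, Malat1-204 21.5% ± 0.221, and Malat1-207 and Malat1-208 20.01% ± 2.75 and 15.5% ± 4.66. The tables of the other cell types do not list Malat1-207 and Malat1-208, which the GENCODE annotation used here does not hold either, and with only transcripts listed in all 5 tables the monocyte mean of Malat1 was 142 ± 8.18 TPM. Malat1-201, which alone among the Malat1 transcripts of that annotation holds mascRNA, took from 26.9% of Malat1 TPM in a B cell library to 80.7% in a T cell library. Short spliced transcripts share most of their bases with Malat1-201, so that their split rests on the estimation by Kallisto, and TPM weigh a short transcript up relative to its reads.

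Neat1 isoforms divided the cell types in another way. The long Neat1-201 held 52.8% to 55.3% of Neat1 TPM in HSPCs and 54.9% to 62.4% in monocytes. Its share was 18.3% to 28.4% in B cells, 29.1% to 39.2% in T cells and 31.2% to 34.7% in NK cells, below every bone marrow library. By level, Neat1-201 was 57.7, 51.8 and 52.6 TPM in monocytes, and at most 3.40 TPM in any other library. Neat1-202 was 47.3, 41.7 and 31.7 TPM in monocytes, and 2.68, 5.78 and 6.74 TPM in NK cells. Among the 15 libraries Neat1-204 was above 0 in B cell replicates 2 and 3 only, at 0.313 and 0.445 TPM. These shares are given as a description, without a test. In B and T cells they rest on low levels, with Neat1-201 at 0.336 to 0.707 and 0.322 to 0.931 TPM and depth unknown. Neat1-202 lies within Neat1-201, so that their split also rests on the estimation by Kallisto.

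**Figure D4:**
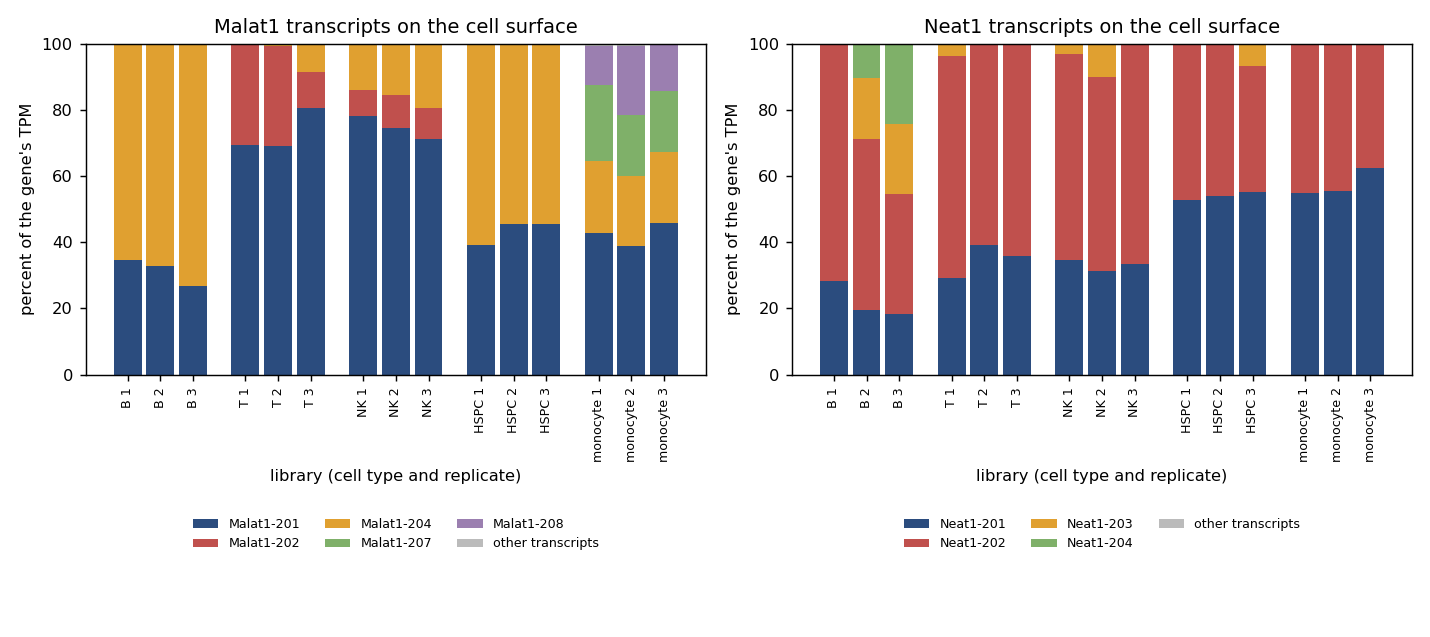
Share of each gene's TPM (y axes, percent) taken by each annotated transcript of Malat1 (left) and Neat1 (right) in the 15 surface libraries (x axes). Malat1-204 leads in B cells and HSPCs and Malat1-201 in T and NK cells, and the long Neat1-201 takes 52.8% or more in the HSPC and monocyte libraries and at most 39.2% elsewhere.

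Malat1 ranked between 3 and 6 among lncRNA genes in all 15 surface libraries and made up 2.04% to 5.97% of lncRNA TPM. Neat1 ranked 7 or 8 in monocytes, 18 to 26 in NK cells, 20 or 21 in HSPCs, 49 to 77 in B cells and 63 to 73 in T cells. Its share of lncRNA TPM was 1.04% to 1.21% in monocytes and at most 0.562% elsewhere. In PBMC total RNA, Malat1 ranked 10 to 14 and Neat1 28 to 30. There the lncRNA genes were those of the GENCODE annotation and TPM came from RSEM. On the surface they were those labelled so in the deposited data, with TPM from Kallisto. Surface and PBMC values in this paragraph are therefore not directly comparable. Set beside cytosolic mRNAs, Malat1 was 3.35 to 4.05 times Gapdh, a glycolytic enzyme, in B cells, 4.25 to 8.46 times in T cells, 3.14 to 4.93 times in NK cells, 0.924 to 1.2 times in HSPCs and 0.600 to 0.851 times in monocytes. In PBMC total RNA that value was 7.28 to 13.9. Relative to Actb, which encodes beta-actin, Malat1 was 0.118 to 0.162 in monocytes, 0.162 to 0.192 in B cells, 0.219 to 0.463 over HSPC, NK and T cell libraries, and 0.362 to 0.520 in PBMCs. The order of types depended on the mRNA chosen. Relative to B2m, Malat1 was 1.13 to 1.99 in HSPCs and 0.401 to 0.643 in T cells. Relative to Tmsb4x it was 1.15 to 1.72 and 0.582 to 0.826. For Eef1a1, Ftl1, Tpt1 and Ppia, T cells lay above HSPCs, as for Gapdh and Actb.

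The mRNAs of proteins that work with these RNAs were measured in the same libraries. Of 12 paraspeckle protein mRNAs, 12 were called higher in monocytes than in HSPCs, with a median log2 difference of 2.92 where all genes had 2.32 and 91.4% of them were called higher. Over protein_coding and lncRNA transcripts, where Neat1 was still called higher, 0 of the 12 were called higher and 2 lower (limma, median -0.00, with 38.3% of all genes called in either direction). Nono and Hnrnpk, which encode RNA-binding proteins of paraspeckles, went from 3.29 and 3.59 as deposited to 0.26 and 0.20 on that scale, where neither was called. Between NK and T cells, 11 of 12 were called higher in NK cells as deposited (median 0.87, against 0.40 for all genes, of which 35.9% were called higher) and 4 of 12 on the coding and lncRNA scale (median 0.20, against 0.25, with 27.5% of all genes called in either direction).

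Of 11 nuclear speckle protein mRNAs, which belong to the bodies that hold Malat1, 11 were called higher in monocytes than in HSPCs as deposited (median 2.83, against 2.32 for all genes, of which 91.4% were called higher). On the coding and lncRNA scale 1 was called higher, 3 were called lower and 7 were not called (median -0.13, with 38.3% of all genes called in either direction), and Malat1 was not called in that pair. Between NK and T cells, 6 of the 11 were called higher in NK cells as deposited (median 0.90, against 0.40 for all genes, of which 35.9% were called higher). Srsf2, a splicing factor gene, was higher in NK than in T cells by 1.29 as deposited and by 0.57 on the coding and lncRNA scale (limma adjusted p = 0.0035 and 0.010). Srsf2 alone does not show how the list behaved on that scale.

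Of 5 protein-coding genes that neighbour Malat1 and Neat1, 3 passed the filter. Of 12 genes around Kcnq1ot1, 6 passed the filter. Cd81, a tetraspanin gene of that region, was lower in T cells than in B cells by a log2 difference of -3.15 ± 0.27 (limma adjusted p = 1e-06, where 29.4% of genes were called lower) and was so on each scale. Kcnq1ot1 gave 0.122 and 0.112 TPM in those types as deposited. Over protein_coding and lncRNA transcripts Kcnq1ot1 was called higher in T cells than in B cells (0.96, limma adjusted p = 0.018). Kcnq1 itself was at 0 in all NK cell, HSPC and monocyte libraries.

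Of 7 other long nuclear non-coding RNAs, 4 passed the filter. Xist, which coats the inactive X chromosome, had the same order of group means as Neat1. Means were 56.8 ± 3.40 TPM in monocytes, 7.60 ± 2.98 in NK cells and 6.08 ± 1.196 in HSPCs. B cells had 2.75 ± 1.92 and T cells 2.16 ± 0.993. The SD ranges of NK cells and HSPCs overlapped, as did those of B and T cells. The paper does not give the sex of the mice, which bears on Xist. On the coding and lncRNA scale the monocyte difference of Xist from HSPCs turned to -0.26 (limma adjusted p = 0.50), where that of Neat1 was 0.94 (adjusted p = 0.00033). Tug1 was 26.6 ± 2.01 TPM in monocytes and 1.19 to 3.49 TPM by group mean elsewhere, and its monocyte difference from B cells turned from 2.62 to -0.86 on that scale.

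Over the 12 libraries of B, T, NK cells and HSPCs, the genes whose log2(TPM + 1) was most like Malat1 were Stat3, Chd2 and Dock8 (Pearson r 0.98 each). For Neat1 they were Cenpo, 6530402F18Rik and Nfe2l2 (r 0.97 each), and for Kcnq1ot1 Timm9, Eif3j1 and Metap1d (r between 0.97 and 0.98). Neat1 and Kcnq1ot1 had r = 0.91, and Malat1 and Neat1 r = 0.27. These values describe 12 libraries that share their groups and their scaling.

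In PBMC total RNA, Neat1 counts were raised in the WT group. The libraries held 4686387 to 9055761 expected counts in all, of which the rRNA gene CT010467.1 took 50.5% to 57.0%. The ct libraries held 1664, 1285 and 1370 counts of Neat1, the WT libraries 2873, 2340 and 2003, and the Y libraries 824, 1353 and 1613. TMM-normalized CPM, the counts scaled to library totals corrected by TMM factors, were 198, 193 and 163 for ct, 313, 296 and 283 for WT, and 180, 176 and 208 for Y. All WT libraries lay above all others, whereas in CPM without TMM factors WT replicate 3 (221) lay below Y replicate 3 (229). The log2 difference was 0.69 ± 0.10 (SE) against ct, with an edgeR quasi-likelihood adjusted p of 0.0012 over 11635 genes, of which 0.765% were called higher. Y was lower than WT by -0.66 ± 0.10 (edgeR adjusted p = 0.0026, 0.817% of genes called lower), and Y against ct gave 0.03 ± 0.10 (adjusted p = 0.97, with 0.705% of genes called in either direction).

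The same RSEM tables give for each gene the mean length of its transcripts, weighted by their estimated abundance. For Neat1 this was 6128, 5329 and 5302 bases in ct, 5614, 5393 and 5459 bases in Y, and 7979, 8010 and 7248 bases in WT, all above the other 6 libraries. A longer mean length means a larger estimated part for Neat1-201 among the annotated isoforms. Per length the groups were closer, since Neat1 TPM were 10.04, 9.73 and 8.04 for ct, 10.3, 12.3 and 9.95 for WT, and 7.82, 8.26 and 9.91 for Y. In limma on log2(TPM + 0.1), chosen after seeing the data, the WT difference from ct was 0.23 ± 0.15 (adjusted p = 0.95), in a fit that called 2 of 16059 genes. More reads from the gene and a longer mean transcript went together in WT, and TPM did not separate WT from ct.

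Malat1 did not follow Neat1. Its TMM-normalized CPM were 2619, 2254 and 2362 for ct, 2471, 2622 and 2357 for WT, and 2426, 2265 and 2493 for Y. The groups overlapped, and edgeR log2 differences were 0.04, -0.01 and -0.05 for WT against ct, Y against ct and Y against WT (SE 0.11, adjusted p between 0.92 and 0.99). Its mean transcript length was 6379, 6336 and 6126 bases for ct, 6090, 6154 and 6041 for WT, and 6633, 6806 and 6803 for Y, the last above all other libraries. Kcnq1ot1 had between 224 and 429 expected counts per library. Its normalized CPM were 51.0, 50.8 and 43.4 for ct, 43.1, 43.2 and 41.6 for WT, and 48.9, 49.1 and 55.4 for Y, and no contrast was called (Y against WT 0.26 ± 0.09, edgeR adjusted p = 0.23). The strand of counting is not given in the sources used here, and Kcnq1, the gene around Kcnq1ot1 on the other strand, was at 0 in all 9 libraries.

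**Figure D5:**
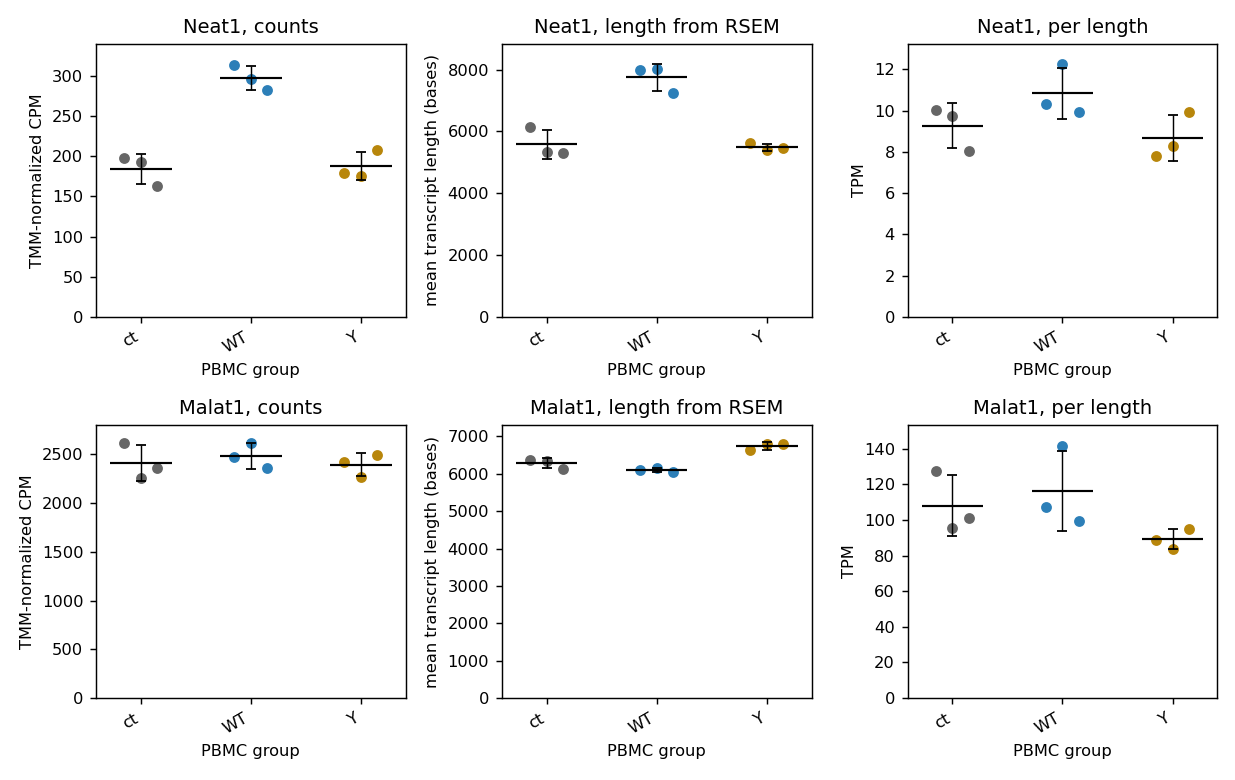
Neat1 (top) and Malat1 (bottom) in the 9 PBMC libraries by group (x axes): TMM-normalized CPM (left), abundance-weighted mean transcript length in bases (middle) and TPM (right). Points are libraries, lines are means and bars are SD (n = 3); the WT libraries stand apart for Neat1 in CPM (283 to 313) and length (7248 to 8010 bases) but not in TPM.

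Cell markers moved with the PBMC groups. The 5 neutrophil markers summed to 73.1 to 96.5 CPM for ct, 58.3 to 73.9 for WT and 207 to 219 for Y. In WT against ct they went both ways, with Ngp higher (1.31, edgeR adjusted p = 0.0012) and S100a8 and S100a9 lower (-0.71 and -0.41, adjusted p = 0.00082 and 0.034), and DESeq2 called 2 of the 5. The 5 monocyte markers summed to 212 to 270, 213 to 281 and 225 to 235 CPM. The 5 erythroid markers summed to 6650 to 8084 CPM for ct, 3870 to 5021 for WT and 4872 to 4899 for Y, and the 5 platelet markers to 394 to 467, 224 to 300 and 318 to 358 CPM. All 5 erythroid and all 5 platelet markers were called lower in WT than in ct by edgeR, where 1.6% of genes were. Among monocyte markers, Ly6c2 was higher in WT than in ct (0.64 ± 0.12, edgeR adjusted p = 0.0070) and Csf1r was lower in Y than in WT (-0.46 ± 0.09, adjusted p = 0.013). Of the 6 NK cell markers, Klrb1c and Ncr1 were higher in WT than in ct as well (edgeR adjusted p = 0.048 and 0.027), where 0.765% of genes were. DESeq2 called 0 of the monocyte and 0 of the NK cell markers in WT against ct, and 5 erythroid and 4 platelet markers. In Y against WT, both tools called 4 of 5 neutrophil markers higher, and edgeR called Csf1r and Ly6c2 (-0.77, adjusted p = 0.0040) lower, where DESeq2 called 2 monocyte markers as well. Their part in the Neat1 difference was not tested, and fewer cells of a type and less RNA per cell cannot be told apart in such bulk samples.

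The partners of Neat1 and Malat1 were compared in the same way. For paraspeckle protein mRNAs in WT against ct, edgeR called 0 of 12 and DESeq2 0 of 12, against 275 of all 11635 genes by edgeR and 169 of 8236 by DESeq2, so that none among 12 is near the background, while 2, of which Hnrnpk is one, had unadjusted p-values under 0.05, and the median log2 difference was -0.01. The 11 nuclear speckle protein mRNAs gave 0 calls by edgeR and 0 by DESeq2 in that contrast, with 0 at an unadjusted p under 0.05 and a median of 0.05. The 3 tested neighbours of Malat1 and Neat1, the 6 tested genes around Kcnq1ot1 and the 4 tested other nuclear RNAs had 0 calls by either tool in WT against ct too, with Cd81 alone under an unadjusted p of 0.05. The counts of these lists and of the speckle list are also near the share over all genes. Over the 9 PBMC libraries the genes most like Neat1 in log2 CPM were Creb5, Nr4a3 and Rel (Pearson r 0.97, 0.96 and 0.96), which encode transcription factors. Those most like Malat1 were Ubr3, Nsa2 and Utp4 (r 0.94, 0.93 and 0.93), and those most like Kcnq1ot1 were Lmbrd2, Fbxl20 and Ndufb3 (r 0.95, 0.95 and 0.92).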

How the data were processed

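For the surface libraries the authors trimmed reads with Trimmomatic, collapsed duplicates with identical barcodes and estimated TPM with Kallisto. The murine transcript set is not given in the sources used here. For PBMCs the authors deposited RSEM expected counts, TPM and a mean length per gene in bases. The submitters' processing notes also name STAR, featureCounts, Trim Galore, cutadapt and the builds mm10 and hg38. TPM of transcripts were summed by gene name. Genes above 1 TPM in at least 3 libraries (12930) entered a limma 3.58.1 trend fit of log2(TPM + 1) over 15 libraries, with 10 contrasts. Expected counts were rounded, filtered with filterByExpr (11635 genes), scaled by TMM and tested with edgeR 4.0.16 (quasi-likelihood, 9 libraries in 1 fit). Adjusted p-values are Benjamini-Hochberg within a contrast over all genes, with a threshold of 0.05. Ratios were tested by exact permutation over 455 choices. SE is a standard error and SD a standard deviation. Scripts were tested on simulated data. The 3 genes and the gene lists were chosen with earlier results of these data known. From each list, genes named were those called with the largest differences, at most 2 per direction and contrast, plus genes whose level helps to read a member. The 3 genes most alike are those with the highest Pearson r among genes tested. The scales compared for gene lists and the TPM fit of PBMCs were added after seeing the data. Alternatives were DESeq2 1.42.0, other scalings, filters and pseudocounts, a replicate block and leaving out each library. R 4.3.3 and Python 3.11.15 were used. RSEM FPKM were not used. Some genes of the lists are not reported here by name.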

Additional observations from a re-analysis of the deposited data

How the results depend on the processing

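Depth on the surface is unknown, so that counting error cannot be given there. Neat1 kept its direction and its side of the threshold in 181 of 188 values over its called pairs, and was weaker in the other 7, all of HSPCs against T cells. For Malat1, 142 of 160 values did so.

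Calls moved as follows. Under quantile normalization Malat1 was called in 2 pairs, and its monocyte differences from B and NK cells turned to -0.56 and -0.079. Over protein_coding and lncRNA transcripts its monocyte differences from B, T, NK cells and HSPCs turned to -1.31, -1.45, -1.13 and -0.33. Without rRNA and the same-valued transcripts, HSPCs against NK cells turned to 0.23, and Kcnq1ot1 was called in 7 pairs, 3 of them HSPCs against lymphocytes. Its monocyte differences turned to -0.10, -0.22, -0.10 and -0.27 under quantile normalization (B, T, NK, HSPC) and to -0.058, -0.11 and -0.41 over protein_coding and lncRNA transcripts (T, NK, HSPC). The ratio of Malat1 to Neat1 was called in 1 cell type with transcripts listed in all 5 tables. The cause was not tested.

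Leaving out 1 library gave 5 to 8 called pairs for Malat1, 6 to 9 for Neat1 and 4 for Kcnq1ot1, which fell under the filter of 1 TPM in 3 libraries without a monocyte library, without all monocytes or with common transcripts only, and under that of 50 TPM. Ratio calls ranged from 0 to 2 for both ratios, and 2 libraries against 12 cannot go below p = 0.011 by exact permutation. In PBMCs, Neat1 WT against ct ranged from 0.62 to 0.75 and Y against WT from -0.75 to -0.62, both called each time. Y against ct ranged from -0.046 to 0.084. Malat1 ranged from -0.0057 to 0.11 for WT against ct and from -0.057 to 0.053 for Y against ct, none called. On TPM, Neat1 gave 0.23, -0.10 and -0.32 for WT against ct, Y against ct and Y against WT, and Kcnq1ot1 Y against ct gave -0.036, none called. Malat1 on TPM gave 0.10, -0.27 and -0.37 in the same order, none called either.

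Same-numbered libraries were not treated as pairs, because no label pairs them and their deviations correlated from -0.27 to 0.47 on the surface and from -0.06 to 0.06 in PBMCs. On the surface 11 of 15 libraries were closest to their own number, a hint of pairing from the data and not from the design. With the replicate block, Malat1 and Neat1 were called in 6 and 7 pairs and Neat1 WT against ct was 0.69 (edgeR adjusted p = 0.0029). PBMC genes called in WT against ct went from 275 to 234 with the replicate block, 169 with DESeq2 and 484 with no filter. In Y against ct the counts were 82, 74, 70 and 257. Leaving out 1 library gave 168 to 253 genes in WT against ct, 34 to 167 in Y against ct, where the extremes were without Y replicate 3 and without ct replicate 3, and 52 to 170 in Y against WT (146 with all libraries), the lowest without Y replicate 3.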
